A study of Homo sapiens with 4 samples.

Results

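The SOX and T-box transcription factors were examined in HCT116, a long-established line from a human colorectal carcinoma, after exposure to 5-aza-2'-deoxycytidine, also called decitabine, which is incorporated into DNA in place of cytosine and blocks DNA methyltransferases. The members were all genes on the array whose probe set carries a single symbol made of SOX or TBX and a number, together with TBXT, TBR1 and EOMES; MGA and SRY were left out. This gave 35 genes of the 17958 tested, 19 SOX genes and 16 T-box genes, each with 1 probe set. Treated cells received 1 µM of the agent 24 hours after seeding and again 48 hours after the first dose, and RNA was taken 72 hours after the first dose from treated and from vehicle-treated cells. There were 2 arrays per group, numbered 1 and 2. Both groups come from the same line, and the labels name neither the vehicle nor whether the samples were separate cultures, so p-values reflect the spread of these samples alone, and that spread could be technical.

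SOX proteins bind the minor groove of DNA through an HMG box related to that of SRY and usually act together with a partner transcription factor. T-box proteins bind DNA through the T-box domain first described in Brachyury (TBXT), and act as activators or repressors in mesoderm, heart, limb and immune cells. In the intestine SOX9 is made in crypt cells and Paneth cells, while SOX17 is a factor of early endoderm. Many genes of both families are silent in adult epithelium, with CpG-rich promoters that can be methylated in tumours.

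Levels are log2 RMA values, in which 1 unit is a doubling on the array's scale, and probe sets bind with different strength, so levels are compared between arrays for 1 gene and not between genes. Over all probe sets the arrays had medians of 5.72 to 5.84 and lower quartiles of 3.75 to 3.88. Pearson's correlation over the probe sets of the table (not independent points) was 0.995 between the vehicle arrays, 0.992 between the treated arrays and 0.966 to 0.971 between groups. Of the epithelial keratins, KRT8 lay between 12.99 and 13.24 and KRT18 between 12.79 and 13.32 on the 4 arrays. A gene is said to rise or fall where its adjusted p in limma, which pools variance over all genes, was under 0.05 (Benjamini-Hochberg adjustment over all genes). An exact permutation test of 2 arrays against 2 cannot go below p = 0.333, so every call rests on the pooled variance. In bulk RNA, more cells making a transcript and more transcript per cell cannot be told apart.

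Of the 35 genes, 11 rose (31.4%) and 5 fell (14.3%), against 12.4% of all genes tested that rose and 15.6% that fell. The rises were of TBX4, TBX20, SOX15, SOX18, SOX30, TBX3, TBX1, SOX17, SOX9, TBX21 and TBX2, and 6 of them were at least 2-fold. The falls were of TBX18, TBX19, TBX5, SOX4 and SOX11, and 0 of them reached 2-fold. The median log2 fold change of the 35 genes was 0.01, beside -0.07 for all genes. The families thus held a group of genes that rose and a majority that did not pass the test. They were chosen with earlier results of these data known, so their shares are descriptive only. The treated arrays lay above both vehicle arrays for 16 members and below both for 12, and the groups overlapped for 7; over all genes the treated arrays lay above for 26.3% and below for 39.5%. Without vehicle replicate 1, 7 members rose and 1 fell, and without vehicle replicate 2, 7 rose and 0 fell, in fits where 7.06% and 7.43% of all genes rose and 6.66% and 6.89% fell. TBX4, TBX20, SOX15, SOX18, SOX30 and TBX3 kept the call under each of the 12 alternative settings, and 0 of the 5 falls did.

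**Figure D1:**
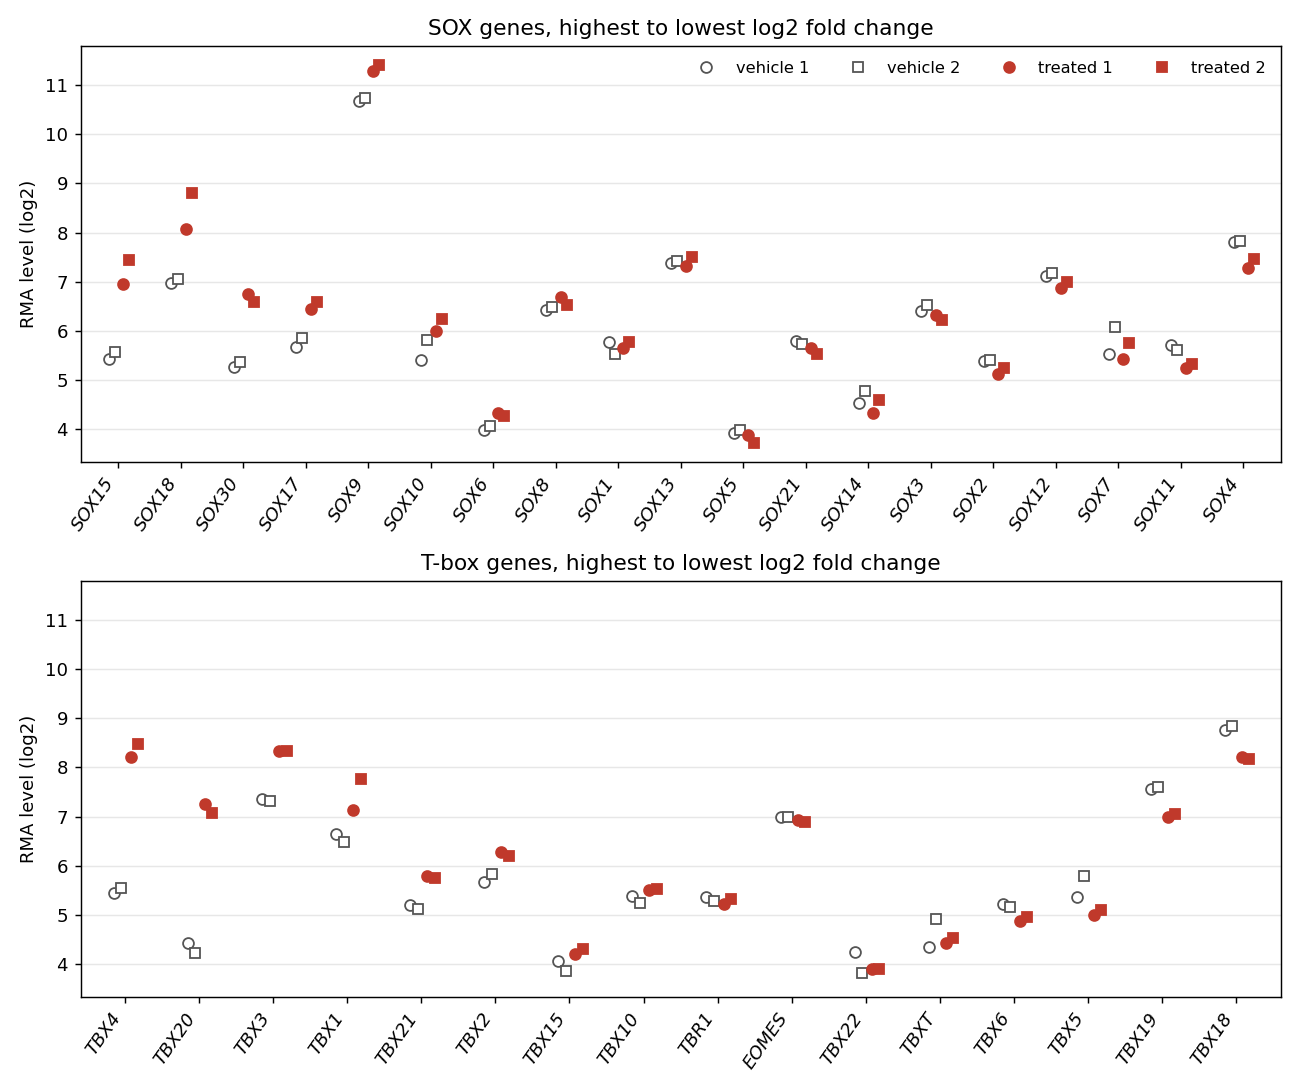
RMA level (log2) of each SOX gene (top) and T-box gene (bottom) on the 2 vehicle arrays (open grey) and 2 treated arrays (filled red), with genes ordered from the highest to the lowest log2 fold change. The treated arrays of TBX4 (8.21 and 8.48) and TBX20 (7.25 and 7.07) stand farthest above their vehicle arrays (5.44 and 5.55, 4.43 and 4.23).

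The largest changes were in 2 T-box genes. TBX4, a factor of hindlimb and lung mesenchyme, had levels of 5.44 and 5.55 on the vehicle arrays and 8.21 and 8.48 on the treated arrays. Its rise was 7.22-fold (log2 fold change 2.85, SE 0.14, limma adjusted p = 2.71e-05). TBX20, a factor of cardiac development, went from 4.43 and 4.23 to 7.25 and 7.07, and rose 7.12-fold (log2 fold change 2.83, SE 0.13, limma adjusted p = 2.43e-05). For both genes the gap between groups was many times the gap between arrays of a group. Sequences around a listed transcript start are given for both genes, for SOX30 and for TBX18, the gene with the largest fall. They show how the CpG sites that DNA methyltransferases act on are spread there. Each sequence runs 5′ to 3′ on the gene's strand, from 250 bases before to 50 after a RefSeq transcript start in GRCh38.p14. Each CpG is in capitals. The TBX4 start lies just before an ATG, and its window may not be that gene's promoter. Neither the methylation of these sites nor the use of these starts in HCT116 was measured.
TBX4, chr17:61456238-61456537, plus strand, 18 CpG: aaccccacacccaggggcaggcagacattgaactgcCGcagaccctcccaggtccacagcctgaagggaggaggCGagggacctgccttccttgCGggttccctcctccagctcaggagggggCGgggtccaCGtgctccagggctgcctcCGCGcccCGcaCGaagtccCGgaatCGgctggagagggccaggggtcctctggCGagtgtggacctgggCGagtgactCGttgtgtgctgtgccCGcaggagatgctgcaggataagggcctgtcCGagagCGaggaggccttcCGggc
TBX20, chr7:35254051-35254350, minus strand, 38 CpG: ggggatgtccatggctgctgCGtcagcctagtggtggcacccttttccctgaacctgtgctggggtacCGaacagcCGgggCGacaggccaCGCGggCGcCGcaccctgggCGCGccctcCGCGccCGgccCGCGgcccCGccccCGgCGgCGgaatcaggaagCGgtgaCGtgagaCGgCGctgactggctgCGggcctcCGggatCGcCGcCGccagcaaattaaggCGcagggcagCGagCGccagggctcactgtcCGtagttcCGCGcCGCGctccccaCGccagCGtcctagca
SOX30, chr5:157671431-157671730, minus strand, 27 CpG: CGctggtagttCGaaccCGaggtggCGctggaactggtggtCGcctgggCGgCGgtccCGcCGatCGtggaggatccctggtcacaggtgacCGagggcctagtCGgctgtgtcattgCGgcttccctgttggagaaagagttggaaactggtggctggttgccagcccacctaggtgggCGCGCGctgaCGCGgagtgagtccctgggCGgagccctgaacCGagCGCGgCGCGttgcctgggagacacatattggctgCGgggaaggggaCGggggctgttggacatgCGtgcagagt
TBX18, chr6:84764549-84764848, minus strand, 21 CpG: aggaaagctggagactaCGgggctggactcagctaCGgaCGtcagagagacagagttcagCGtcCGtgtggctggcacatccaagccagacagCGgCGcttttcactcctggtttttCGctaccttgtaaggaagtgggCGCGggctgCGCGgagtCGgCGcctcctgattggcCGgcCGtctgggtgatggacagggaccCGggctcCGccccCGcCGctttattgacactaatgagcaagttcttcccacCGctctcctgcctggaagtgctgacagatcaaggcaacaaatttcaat

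CpG counts around the start overlapped between members that were called and members that were not. Of the 35 genes, 23 had a 300-base window in the RefSeq table, and the first listed window of each was used. Their CpG counts ran from 3 to 54 with a median of 21, beside a median of 23 and quartiles of 9 and 32 for the 13861 tested genes with a window. No window was listed for the risen genes SOX15, SOX18, SOX17, SOX9, TBX3 and TBX2, or for SOX11, which fell. The 5 risen genes with a window held 18 to 38 CpG (median 23), and the 4 fallen ones 3 to 21 (median 14.5). The 14 others ranged from 3 to 54 (median 20.5), a range that encloses both. TBX19, which fell, had 3, as did TBX22, which did not pass the test. SOX12 had the most, 54, and a log2 fold change of -0.21 that did not pass the test. Searched on both strands, the T-box motif AGGTGTGA was found in 0 of the 23 windows and in 0.85% of those of all tested genes. The SOX cores AACAAT and ACAAAG were found in 2 (SOX5 and TBR1) and 1 (SOX2) windows, beside 6.78% and 12.4% of all. The GC box GGGCGG was in 13 windows, beside 60.0% of all. These are letter matches only. The members with an AACAAT or ACAAAG match were among the 14 of 23 that were not called, and are too few to relate a match to a call.

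Within the TBX2 subfamily, all 4 genes passed the test, 3 higher and 1 lower. Besides TBX4, TBX3, a repressor active in limb, mammary gland and senescence bypass, had near-identical levels within each group, 7.35 and 7.31 against 8.34 and 8.34. It rose 2.01-fold (log2 fold change 1.01, SE 0.11, limma adjusted p = 0.00111). TBX2, its close relative and also a repressor, went from 5.66 and 5.84 to 6.27 and 6.19. That rise was 1.39-fold (SE 0.12 on the log2 scale, limma adjusted p = 0.0290) and was not called without vehicle replicate 1 (adjusted p = 0.258), vehicle replicate 2 (adjusted p = 0.0943) or treated replicate 1 (adjusted p = 0.0534), nor after repeated quantile normalization (adjusted p = 0.0691). TBX5, a factor of heart and forelimb, moved the other way, from 5.38 and 5.79 to 5.00 and 5.10, and fell 1.45-fold (SE 0.16, limma adjusted p = 0.0481). Its vehicle arrays were farther apart than its treated arrays. The call for TBX5 was lost without vehicle replicate 2, where the log2 fold change was -0.33 (adjusted p = 0.354), and without either treated array (adjusted p = 0.102 and 0.0699). It was also lost with housekeeping centring (adjusted p = 0.0536), with all probe sets tested (adjusted p = 0.0516) and with a trended, robust variance (adjusted p = 0.0559).

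These 4 genes lie as neighbouring pairs in the RefSeq gene order, TBX2 next to TBX4 on chromosome 17 and TBX5 next to TBX3 on chromosome 12. In the first pair both genes rose, by 0.48 and 2.85 on the log2 scale. In the second, TBX3 rose by 1.01 and TBX5 fell by 0.53.

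The TBX1 subfamily was mixed. TBX1 itself, a factor of the pharyngeal arches, went from 6.64 and 6.49 to 7.13 and 7.77 and rose 1.84-fold (SE 0.21, limma adjusted p = 0.0206). Its treated arrays were farther apart than its vehicle arrays, and without vehicle replicate 2 the adjusted p was 0.0729. TBX18, a factor of the epicardium, ureter and sinus node, had 8.75 and 8.83 on the vehicle arrays and 8.21 and 8.17 on the treated arrays. It fell 1.52-fold (SE 0.11, limma adjusted p = 0.00914), a call that was lost without vehicle replicate 1 (adjusted p = 0.0621) and without vehicle replicate 2 (adjusted p = 0.0950). The other members beside TBX20 did not pass the test. TBX15, a factor of skeleton and muscle, had a log2 fold change of 0.30 (95% interval -0.0039 to 0.61), TBX10 of 0.20 (interval -0.09 to 0.48) and TBX22, a palate gene on the X chromosome, of -0.13 (interval -0.52 to 0.26).

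Among the remaining T-box genes 1 rose and 1 fell. TBX21 (T-bet), the factor of T helper 1 cells and natural killer cells, went from 5.19 and 5.12 to 5.79 and 5.74. It rose 1.53-fold (SE 0.11, limma adjusted p = 0.00884), with adjusted p of 0.0608 and 0.0918 without vehicle replicates 1 and 2. Its relatives EOMES, a factor of cytotoxic lymphocytes and early endoderm, and TBR1, a factor of cortical neurons, had log2 fold changes of -0.08 (95% interval -0.34 to 0.19) and -0.04 (interval -0.32 to 0.24). TBX19, the corticotroph factor that drives POMC in the pituitary, went from 7.57 and 7.60 to 6.99 and 7.06. It fell 1.47-fold (SE 0.11, limma adjusted p = 0.0121), with adjusted p of 0.0944 and 0.109 without vehicle replicates 1 and 2. TBXT, the Brachyury gene of early mesoderm, and TBX6, a gene of paraxial mesoderm, did not pass the test (log2 fold changes -0.16 and -0.28, intervals -0.62 to 0.30 and -0.56 to -0.0039).

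**Figure D2:**
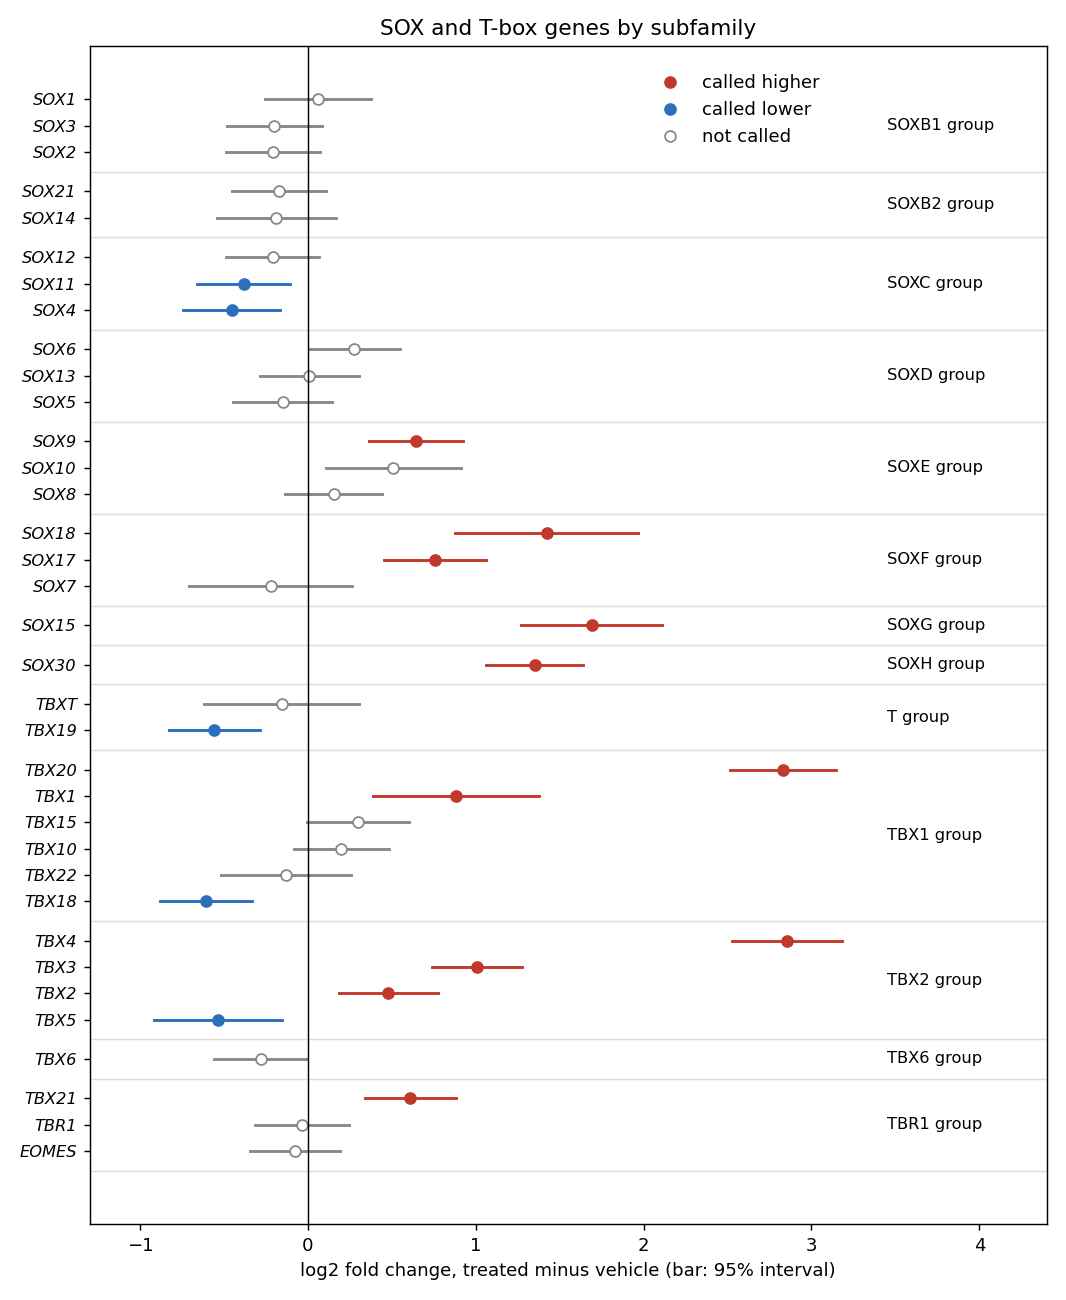
Log2 fold change (treated minus vehicle) of each member, with its 95% interval from limma's moderated standard error, grouped by subfamily; filled red and blue points passed the test as higher and lower, and open grey points did not. The TBX2 group holds TBX4 at 2.85 and TBX5 at -0.53, and all 3 SOXC genes lie below 0.

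Of the 19 SOX genes, 5 rose (26.3%) and 2 fell (10.5%), beside 12.4% and 15.6% of all genes. The 2 genes that form subfamilies of their own, SOX15 and SOX30, were among the 3 SOX genes with the largest rises. SOX15, a gene of the SOXG group studied in trophoblast and muscle progenitors, had 5.43 and 5.57 on the vehicle arrays and 6.95 and 7.43 on the treated arrays. It rose 3.23-fold (log2 fold change 1.69, SE 0.18, limma adjusted p = 0.000795). SOX30, the SOXH gene needed for spermatid development, went from 5.27 and 5.36 to 6.74 and 6.59 and rose 2.55-fold (log2 fold change 1.35, SE 0.12, limma adjusted p = 0.000413). Neither gene's groups overlapped. In the RefSeq table SOX15 overlaps MPDU1, and SOX30 overlaps C5orf52. MPDU1 fell by 0.48 on the log2 scale, and C5orf52 had a log2 fold change of -0.07 that did not pass the test. In the same samples, germ cell markers rose: DAZL by 6.79 and DDX4 by 2.79 on the log2 scale, while the spermatid genes PRM1 and TNP1 did not pass the test (log2 fold changes -0.30 and 0.19). The part of germ cell genes in the change of SOX30 was not tested.

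In the SOXF group, SOX18, a factor of blood and lymphatic vessels, went from 6.98 and 7.06 to 8.08 and 8.81. It rose 2.68-fold (log2 fold change 1.42, SE 0.23, limma adjusted p = 0.00493), with the largest spread between treated arrays of any member that rose (SD 0.52, n = 2). Left with 1 treated array, the log2 fold change was 1.79 without treated replicate 1 and 1.05 without treated replicate 2, and the call was kept in both. SOX17, a factor of definitive endoderm that also acts in vessels, went from 5.67 and 5.85 to 6.45 and 6.59, and rose 1.69-fold (SE 0.13, limma adjusted p = 0.00598; adjusted p = 0.0592 without vehicle replicate 1). SOX7, the third of the group, had overlapping groups, 5.54 and 6.08 against 5.43 and 5.75, and a log2 fold change of -0.22 that did not pass the test. Of 6 endothelial markers 2 rose (33.3%, beside 12.4% of all genes), PECAM1 by 1.79 and TIE1 by 0.93 on the log2 scale. KDR fell by 0.55 (16.7% of the markers, beside 15.6% of all genes). The summed level of the 6 markers (log2 of the summed linear values) was 7.01 to 7.20 on the vehicle arrays and 7.77 to 8.19 on the treated arrays. TEK (log2 fold change 0.51, limma adjusted p = 0.0518), VWF (0.33, adjusted p = 0.0788) and CDH5 (0.18, adjusted p = 0.330) did not pass the test. Their treated arrays lay above both vehicle arrays, as did those of 26.3% of all genes. From vehicle to treated arrays, PECAM1 went from 4.94 and 5.24 to 7.18 and 6.58. VWF went from 4.31 and 4.21 to 4.58 and 4.60, and CDH5 from 4.24 and 4.37 to 4.41 and 4.56. The part of endothelial genes in these changes was not tested.

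In the SOXE group, SOX9, the gene of this family known from intestinal crypts, cartilage and Sertoli cells, went from 10.67 and 10.74 to 11.29 and 11.41. It rose 1.56-fold (SE 0.12, limma adjusted p = 0.00791), and the call was lost without vehicle replicate 1 (adjusted p = 0.0796) and without vehicle replicate 2 (adjusted p = 0.0522). SOX10, the neural crest and glial factor, had 5.42 and 5.82 against 6.01 and 6.25, which do not overlap, and a log2 fold change of 0.51 that missed the threshold (SE 0.17, limma adjusted p = 0.0643). With the replicate number as a block its adjusted p was 0.00919. SOX10 also passed when treated replicate 1 was left out (adjusted p = 0.0452) and where the dimmest 33.3% of genes were left out (adjusted p = 0.0475). SOX10 overlaps POLR2F in the RefSeq table, as TBX1 overlaps GNB1L. SOX8 had a log2 fold change of 0.15 (95% interval -0.14 to 0.44). Of the 3 glial markers tested, S100B, FOXD3 and CDH19, 0 passed limma's test and 0 had an unadjusted p under 0.05.

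The 3 SOXC genes, factors of progenitor cells and neurons, all had treated arrays below both vehicle arrays, as did 39.5% of all genes. SOX4, the member most studied in colorectal tumours, went from 7.82 and 7.83 to 7.28 and 7.46 and fell 1.37-fold (SE 0.12, limma adjusted p = 0.0324). SOX11 went from 5.71 and 5.62 to 5.24 and 5.32 and fell 1.30-fold (SE 0.12), with an adjusted p of 0.0499, at the edge of the threshold. SOX12 had 7.12 and 7.17 against 6.88 and 6.99 and did not pass the test (log2 fold change -0.21, 95% interval -0.49 to 0.07). The direction of all 3 held under each scaling tried. The call for SOX4 was lost without vehicle replicate 1 (adjusted p = 0.184), vehicle replicate 2 (adjusted p = 0.198) and treated replicate 1 (adjusted p = 0.0628), and that for SOX11 without any 1 of the 4 arrays (adjusted p from 0.0532 to 0.338). SOX11 also missed the threshold with housekeeping centring (adjusted p = 0.0707), with all probe sets tested (adjusted p = 0.0527) and with a trended, robust variance (adjusted p = 0.0811).

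The SOXB and SOXD groups had no call. SOX2 and SOX3, which with SOX1 keep neural and pluripotent progenitors, had log2 fold changes of -0.21 and -0.20, and SOX1 of 0.06. SOX14 and SOX21, the SOXB2 genes that repress what SOXB1 proteins activate, were at -0.19 and -0.17. In the SOXD group, whose proteins lack a transactivation domain and assist SOX9 in cartilage, SOX6 was at 0.28 (95% interval 0.0038 to 0.55), SOX13 at 0.01 and SOX5 at -0.15. Over the 19 members without a call in both families, log2 fold changes ran from -0.28 to 0.51 and their 95% intervals reached from -0.71 to 0.91. These intervals are per gene, while the test is adjusted over all genes. The intervals of SOX10 (0.11 to 0.91), SOX6 and TBX6 (-0.56 to -0.0039) thus excluded 0 without a call. With 2 arrays a group, smaller changes of the 19 genes could not be told from none by the adjusted test.

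Few genes known as targets of these factors passed the test. Their list, too, was chosen with earlier results of these data known. Of 43 listed, 34 were tested, and 4 rose and 1 fell, a share of rises (11.8%) near that of all genes (12.4%), a share of falls (2.9%) below that of all genes (15.6%) and a median log2 fold change of -0.04. POMC, the pituitary hormone precursor that TBX19 activates, went from 4.75 and 4.55 to 7.74 and 8.41 and rose 10.8-fold (log2 fold change 3.43, SE 0.22, limma adjusted p = 9.06e-05), in the same arrays in which TBX19 fell. MIXL1, a mesendoderm homeobox gene, rose 2.08-fold. CDKN1A, the p21 gene that TBX2 and TBX3 are known to repress, rose 1.72-fold in the arrays in which both of those genes rose. CEACAM1, an adhesion gene that SOX9 activates in colon cells, rose 1.58-fold. The fall was of ERBB3, a receptor gene activated by SOX10 in glia (log2 fold change -0.76, SE 0.12, limma adjusted p = 0.00435). Over the 34 tested targets, log2 fold changes were above 0 for 15 and below 0 for 19. The cartilage targets of SOX9, COL2A1 (log2 fold change -0.12), ACAN (0.09), COL9A1 (-0.15), COL11A2 (0.14) and HAPLN1 (-0.04), did not pass. Nor did CDH1, repressed by TBX2 and TBX3 (-0.06), the SOX18 targets CLDN5 (-0.31), VCAM1 (-0.26) and PROX1 (-0.12), the cardiac targets NPPA (0.07) and GJA5 (-0.31), or the TBX21 targets IFNG (-0.29) and CXCR3 (-0.15).

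Most of the tested partner and co-repressor genes passed the test. Of 20 listed, 17 were tested, 7 rose (41.2%) and 3 fell (17.6%), beside 12.4% and 15.6% of all genes, with a median log2 fold change of 0.20. The list was chosen with earlier results of these data known, so these shares give no test of partner genes against all genes. The cardiac factors in the list were mixed: GATA4 and NKX2-5 rose, HAND2 did not pass the test and MEF2C fell. GATA4 went from 5.14 and 4.90 to 6.20 and 6.59 (2.60-fold, SE 0.17, limma adjusted p = 0.00152). NKX2-5 went from 6.11 and 6.32 to 7.26 and 7.22 (2.04-fold, SE 0.13, limma adjusted p = 0.00162). HAND2 did not pass (log2 fold change 0.34, adjusted p = 0.0645), and of 4 cardiomyocyte markers tested, MYH6, MYH7, NPPA and ACTC1, 0 passed limma's test and 1, ACTC1, had an unadjusted p under 0.05. PAX6, a SOX2 partner in lens and brain, rose 2.08-fold, and RIPPLY3, a co-repressor of TBX1, rose 1.54-fold. MEF2C, a factor of heart, muscle and cartilage, and TLE2, a Groucho co-repressor, fell by 1.02 each on the log2 scale. Outside the rule for named genes, and picked once their values were known, the other calls were of TLE4, TLE3 and CHD7 (higher, 0.58, 0.43 and 0.42) and of TCF7L2 (lower, -0.40). Without vehicle replicate 1, without vehicle replicate 2 and at an adjusted p under 0.01, 3 rises were called in each case.

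**Figure D3:**
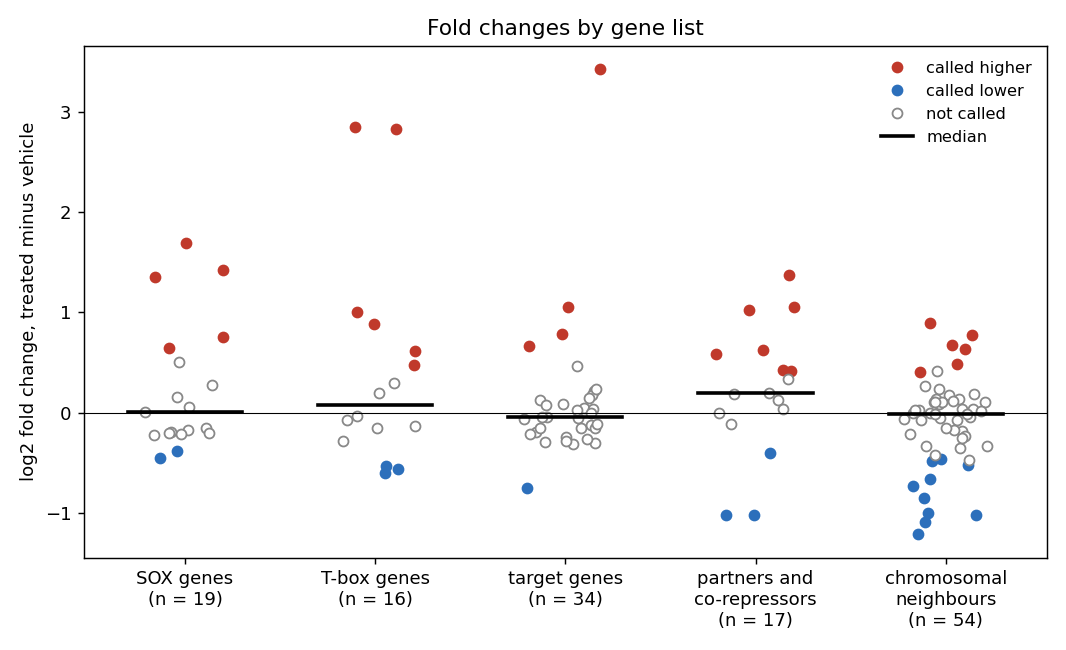
Log2 fold changes (treated minus vehicle) of the SOX genes, T-box genes, their listed targets, their partners and co-repressors, and their chromosomal neighbours; each point is a gene, filled where it passed the test, and black bars are medians. POMC, at 3.43, stands far above the other targets, whose median is -0.04.

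Few of the nearest coding genes on the chromosome rose. Each member's nearest protein-coding gene on either side in the RefSeq order, stepping over other members, gave 66 genes, of which 54 were tested. Of these, 6 rose (11.1%) and 10 fell (18.5%), near the shares of all genes, with a median log2 fold change of -0.02. Next to the 11 risen members, with other members stepped over, 17 neighbours were tested and 2 rose. These were RBM19 (log2 fold change 0.49, limma adjusted p = 0.0310) and TBKBP1 beside TBX21 (0.41, adjusted p = 0.0496). Between RBM19 and the risen TBX3 lies TBX5, which fell. Another 4 fell: BCAS3 beside the TBX2 and TBX4 pair (-0.85), SLC39A11 beside SOX9 (-1.09), ADAM19 beside SOX30 (-0.73) and MPDU1 beside SOX15 (-0.48). DPY19L1 and HERPUD2, on either side of TBX20, had log2 fold changes of -0.47 and -0.04 and did not pass. Around the fallen members, CDKAL1 beside SOX4 fell 2.01-fold and CMPK2 beside SOX11 fell by 0.53 on the log2 scale. TBX18 lay between CEP162, which fell by 0.67, and NT5E, an ectonucleotidase gene, which rose 1.85-fold. By the rule for named genes the other neighbours with the smallest p-values were WARS2, next to TBX15 (-1.21), and SSTR5, next to SOX8 (-1.02). Without vehicle replicate 1, 1 neighbour rose and 6 fell, and without vehicle replicate 2, 3 rose and 6 fell.

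**Figure D4:**
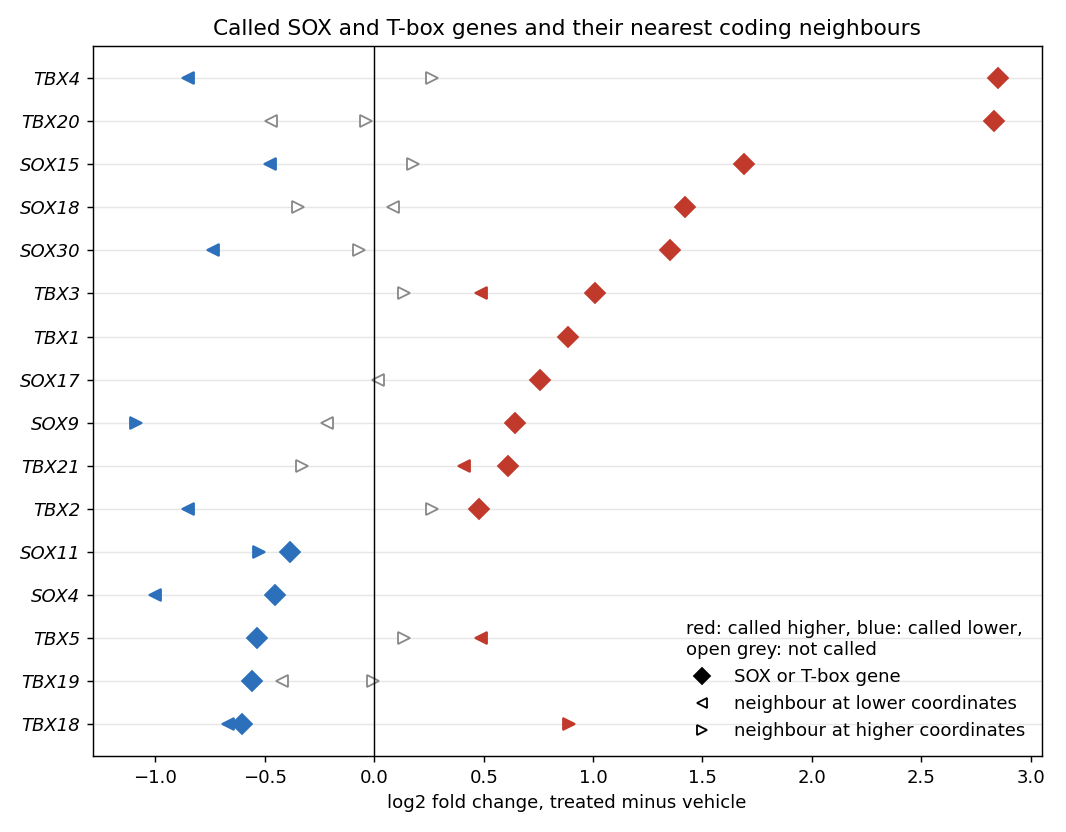
Log2 fold change (treated minus vehicle) of the 16 called SOX and T-box genes (diamonds) and of their tested nearest coding neighbours at lower (left-pointing) and higher (right-pointing) coordinates; red and blue symbols passed the test as higher and lower, open grey symbols did not. Other members were stepped over, so TBX4 at 2.85 is shown with BCAS3 at -0.85, which lies beyond TBX2 (0.48, itself called higher). TBX20 at 2.83 lies between genes at -0.47 and -0.04.

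Some markers of other cell types that use these factors, and of colon epithelium, also rose, beside 12.4% of all genes. The marker lists were chosen with earlier results of these data known, so their shares are descriptive only. For TBX21 and EOMES, the lymphocyte genes CD3D and CD3E rose by 1.79 and 0.92 on the log2 scale, 2 of 6 markers (33.3%), and the list's summed level was 7.06 to 7.07 on the vehicle arrays and 7.75 to 7.79 on the treated arrays. PTPRC, CD2, NKG7 and GNLY did not pass, with PTPRC at 3.05 and 3.20 on the treated arrays. Of 5 fibroblast markers 1 rose (20.0%), COL1A1 (log2 fold change 0.63), while DCN and LUM were at 2.80 to 3.15 on the treated arrays; the summed level was 7.31 to 7.33 in vehicle and 7.65 to 7.77 in treated cells. Of 9 markers of colon epithelium, 4 rose (44.4%; KRT20, LGALS4, KRT18 and CDX2) and 1 fell (EPCAM, log2 fold change -0.72), with a summed level of 14.63 to 14.66 in vehicle and 14.86 to 14.94 in treated cells. The part of these genes in the changes of the SOX and T-box genes was not tested.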

How the data were processed

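Total RNA from 2 vehicle and 2 treated samples was hybridized on Affymetrix arrays, 1 array per sample. The deposited values are log2 levels that the authors made with Affymetrix Expression Console and RMA, per the submitters' processing notes; software versions, genome build and definition of probe sets: not given in the sources used here. RMA forces the arrays to one distribution, which hides any shift in RNA content per cell, and it compresses folds near background. The table has no detection calls.

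Of 33297 probe sets, 19181 had 1 symbol in the platform annotation, 2055 several, and 12061 were not listed. For a gene with several probe sets, the one brightest on average over the 4 arrays was kept, which gave 17958 genes; no filter was applied. The treated-minus-vehicle difference was fitted per gene in R 4.3.3 by limma 3.58.1 (lmFit, eBayes, no covariate, two-sided, Benjamini-Hochberg over all genes, threshold 0.05); the fit was tested on simulated data. The number of arrays limits the precision: the median SE was 0.13. Intervals used limma's moderated SE with 6.87 degrees of freedom and were not adjusted for the number of genes. Alternatives were a replicate block, other scalings, a filter on dim genes, other uses of probe sets, another variance model, a stricter threshold and leaving out each array. Named by rule were all members and, per list of targets, partners or neighbours, up to 6 called genes with the smallest p-values. Other genes of these lists, called or not, are also named outside this rule. The members and lists were chosen with earlier results of these data known. Neighbours and the windows around transcript starts come from RefSeq tables of GRCh38.p14. No values were left out of the 4 arrays.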

Additional observations from a re-analysis of the deposited data

How the results depend on the processing

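With housekeeping centring, with all probe sets tested and with a trended, robust variance, 3 members fell in each case against 5 in the reported fit. Over all genes 14.4%, 15.1% and 16.5% fell in these settings, against 15.6% in the reported fit. Without the dimmest 33.3% of genes, 3 of the 22 members left in fell, beside 23.1% of the genes kept. SOX11 and TBX5 were left out by that filter and were not refitted. At an adjusted p under 0.01 there was 1 fall among members. Leaving out 1 array gave 7 to 11 rises and 0 to 3 falls among members, 1 to 5 rises and 6 to 11 falls among neighbours, and 3 to 6 rises among partners; the lone array of a group was then assumed to vary like the other group. Repeated quantile normalization gave 2 falls among targets. At an adjusted p under 0.01, 3 partners and 2 neighbours rose. Of the 35 members, 13 belonged to the dimmest 33.3% of genes and had no value without them. Centring and repeated normalization moved the median of all genes by 0.03 and 0.04 on the log2 scale.

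Direction reversed only for members without a call. SOX1 was at -0.052 after repeated quantile normalization. With 1 array left out, SOX1 ran from -0.058 (without vehicle replicate 2) to 0.18, SOX13 from -0.092 (without treated replicate 2; -0.0053 without vehicle replicate 1) to 0.11, SOX7 from -0.49 to 0.051 (without vehicle replicate 2), TBR1 from -0.091 to 0.015 (without treated replicate 1; 0.0039 without vehicle replicate 1), TBX22 from -0.35 to 0.090 (without vehicle replicate 1) and TBXT from -0.45 to 0.13 (without vehicle replicate 2).

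The arrays share only a number with those of the other group; deviations of same-numbered arrays correlated at 0.27 across genes. With the replicate block 12 members rose, SOX10 being added (adjusted p = 0.00919), and 5 fell; 5 targets rose and 1 fell, 8 partners rose and 3 fell, and 7 neighbours rose and 13 fell. Over all genes the block gave 2805 rises and 3834 falls, against 2229 and 2794. The cause of these differences was not tested.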
